A study of Homo sapiens with 12 samples.

Results

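The mature arms of miR-23a, miR-23b, miR-27a, miR-27b and miR-24 were examined, which are cut from 6 hairpins in a pair of gene clusters. The members were all listed arms of these names of the type mature miRNA. The rule found 7 arms (miR-23a-3p, miR-23b-3p, miR-24-2-5p, miR-24-3p, miR-27a-3p, miR-27a-5p and miR-27b-3p) among the 314 mature miRNAs listed with or without LPS, and each of the 7 was listed in both tables. Of the 11 arms that the RefSeq miRNA table gives for these hairpins, 4 were not listed, namely miR-23a-5p, miR-23b-5p, miR-24-1-5p and miR-27b-5p.

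Small noncoding RNA was sequenced in Mono Mac 6 (MM6) cells, a human monocytic cell line, with 3 libraries in each of 4 groups and 12 libraries in all. The groups were wild-type cells, cells with a knockout of 5-lipoxygenase (5-LOΔ MM6 cells), and the same genotypes after LPS. All 4 groups, the wild-type controls included, had been differentiated with TGF-β at 1 ng/mL and calcitriol at 50 nM, for 72 h by the sample labels, and the LPS groups had received 1 µg/mL LPS for 6 h. The knockout was made with CRISPR/Cas9 in the ALOX5 gene and the knockout cells are clones of the line. The labels do not say which clone a library came from, so an effect of the knockout cannot be told apart from a difference between clones. The study asked whether 5-LO, the enzyme that starts leukotriene synthesis and binds Dicer, changes the set of miRNAs in these cells.

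miR-23, miR-27 and miR-24 are made from shared primary transcripts. Drosha cuts each hairpin out of the primary transcript in the nucleus, Dicer removes its loop in the cytoplasm, and usually 1 of the arms stays in Argonaute, where its seed pairs with target mRNAs. Both clusters are expressed in blood cells and in many other tissues, and these miRNAs are known regulators of myeloid differentiation, of lipid metabolism and of inflammatory signalling.

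The 7 arms are shown because the seeds sort them into families that cross the clusters. RefSeq mature sequences are written 5′ to 3′, with the seed (bases 2 to 8) in capitals.
miR-23a-3p: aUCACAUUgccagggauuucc
miR-23b-3p: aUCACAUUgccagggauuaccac
miR-27a-3p: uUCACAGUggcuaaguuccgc
miR-27b-3p: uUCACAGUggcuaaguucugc
miR-24-3p: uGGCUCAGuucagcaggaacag
miR-27a-5p: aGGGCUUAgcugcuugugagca
miR-24-2-5p: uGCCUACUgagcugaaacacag
miR-23a-3p and miR-23b-3p share a seed and their first 18 bases. Counted from base 1 at the 5′ end, they differ by the substitution U19A, and miR-23b-3p has 2 more bases at its 3′ end. miR-27a-3p and miR-27b-3p likewise share 18 bases and differ by C19U alone. Reads that end before base 19 could therefore not be assigned to the a or the b form, and how such reads were counted is not given in the sources used here. miR-24-3p is identical in both clusters. The arms have 21 to 23 bases, so their normalized counts were compared without a correction for length.

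On chromosome 19 (GRCh37, the assembly behind hg19, to which the reads were annotated), MIR23A lies from 13947401 to 13947473, MIR27A from 13947254 to 13947331 and MIR24-2 from 13947101 to 13947173, all on the minus strand. The 3 hairpins span 373 bp and each overlaps an exon of MIR23AHG, a long noncoding RNA gene from 13934694 to 13953742. On chromosome 9, MIR23B lies from 97847490 to 97847586, MIR27B from 97847727 to 97847823 and MIR24-1 from 97848303 to 97848370, all on the plus strand and over 881 bp. They lie inside AOPEP, a protein-coding gene for an aminopeptidase on the same strand from 97488886 to 97914075. All 7 AOPEP transcripts that span MIR23B and MIR27B have them in introns, whereas MIR24-1 overlaps an exon of 1 transcript and lies opposite to MIR3074.

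The deposited values are means over the 3 libraries of a group in normalized counts, with no values for single libraries and no SD. The tables without and with LPS were normalized separately. The knockout effect, the log2 ratio of the knockout to the wild-type mean, was therefore taken within each table, and across tables only ratios, shares and differences of effects were compared. Where levels of both tables stand in 1 sentence, they are given without a comparison. Size factors recovered from low means ran from 0.883 to 1.249 in wild-type cells, 0.725 to 1.34 in 5-LOΔ MM6 cells, 0.665 to 1.72 in wild-type cells with LPS and 0.812 to 1.30 in 5-LOΔ MM6 cells with LPS. They gave a 95% counting interval for each mean and, for low means, the whole reads of each library, which are ordered here from the largest to the smallest size factor. A counting interval leaves out the spread between replicates. A second, wider interval added that spread, estimated at a coefficient of variation of 32.2% from recovered reads of 73 group means of low mature miRNAs. This is the root of the mean dispersion, and the estimates of the groups differed, with 16.3% in wild-type cells, 34.3% in 5-LOΔ MM6 cells, 32.1% in wild-type cells with LPS and 40.9% in 5-LOΔ MM6 cells with LPS. The means allowed no replicate test across all miRNAs. Only where the reads of every library in both genotypes were recovered, for 3 rare arms, was an exact permutation test over libraries run.

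The label of the cells was checked with miRNAs known from other work. The myeloid miRNAs miR-223-3p (93.8 normalized counts in wild-type cells), miR-142-3p (97.9) and miR-142-5p (323) were present in all 4 groups. Of 8 miRNAs typical of liver, muscle, neurons, epithelium, endothelium or erythroid cells, 1 was found listed, miR-200c-3p. Its means were 1.19 in wild-type cells, 1.00 in wild-type cells with LPS and 0 in both knockout groups. Some listed names, such as miR-152 and miR-181d, carry no arm, so a marker listed under such a name could have been missed. miR-146a-5p, which LPS induces in monocytes, had means of 66.9 in wild-type cells and 100.1 in the knockout without LPS, and of 468 and 555 with LPS. miR-155-5p, the other LPS-induced miRNA checked, had means of 1358 and 1998 without LPS and of 1360 and 1783 with LPS. The tables were normalized separately, so no change with LPS is read from these levels. In bulk RNA, fewer cells carrying a miRNA and less of it per cell cannot be told apart.

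miR-24-3p dominated the family. The mean of this arm, known to act on cell cycle and apoptosis genes, was 265 normalized counts in wild-type and 261 in the knockout cells, and 196 and 241 with LPS. It ranked 32nd and 33rd of 285 mature miRNAs without LPS and 35th and 36th of 262 with LPS. It held 59.1% to 62.2% of the summed means of the 7 arms in every group. The plot of levels shows how far it stood above the other arms.

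**Figure D1:**
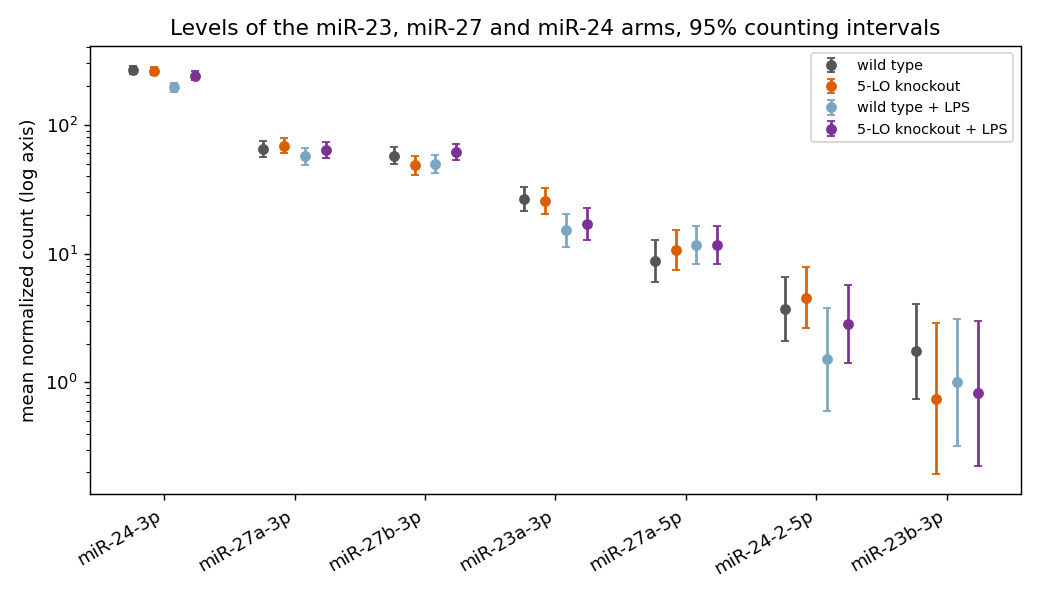
Mean normalized count (log axis) of the 7 arms in the 4 groups; points are means of 3 libraries and bars are 95% counting intervals. miR-24-3p lies between 196 and 265 in all groups, miR-27a-3p and miR-27b-3p between 48.3 and 68.9, and miR-23b-3p at or below 1.74.

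The miR-27 arms came next. miR-27a-3p, a repressor of adipogenic and lipid genes, had means of 64.7 and 68.9 without LPS and 56.9 and 63.4 with LPS in the wild type and the knockout. miR-27b-3p, its near copy from chromosome 9, had 57.7 and 48.3 without LPS and 49.3 and 61.4 with LPS. The order of the pair was the same in every group, but their counting intervals overlapped in each of them except in 5-LOΔ MM6 cells without LPS.

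miR-23a-3p, known to act on glutaminase and on apoptosis genes, had means of 26.6 and 25.6 without LPS and 15.1 and 16.9 with LPS. Its reads in the 3 wild-type libraries were 35, 25 and 24, which are 28.0, 24.6 and 27.2 normalized counts. In the knockout libraries with LPS they were 25, 14 and 12, or 19.2, 16.8 and 14.8 normalized counts. All 3 wild-type libraries without LPS thus lay close to each other. In the other groups the mean could be made from whole reads in 2 or 3 ways, and no library values are given.

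The remaining arms were rare. miR-27a-5p, the opposite strand of the MIR27A hairpin, had means of 8.78 and 10.6 without LPS and 11.7 and 11.6 with LPS. Its normalized counts were 12.8, 7.88 and 5.66 in the wild-type libraries and 11.98, 11.6 and 8.28 in the knockout libraries, so the groups overlapped (exact permutation test, two-sided, p = 0.6). Such a test of 3 against 3 libraries cannot go below 0.1. With LPS the knockout libraries had 15.4, 4.79 and 14.8.

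miR-24-2-5p is the strand of MIR24-2 that pairs with miR-24-3p, and it can come only from chromosome 19. It had 3, 2 and 6 reads in the wild-type and 8, 2 and 4 reads in the knockout libraries without LPS, and 3, 3 and 0 against 0, 4 and 3 with LPS. The groups overlapped in both tables (exact permutation test, two-sided, p = 0.9 without and p = 0.5 with LPS). Its means were 3.72, 4.54, 1.51 and 2.83 in the order wild type, knockout, wild type with LPS and knockout with LPS.

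miR-23b-3p was at the edge of detection. It had 0, 3 and 2 reads in the wild-type and 3, 0 and 0 in the knockout libraries, and with LPS 2 reads in 1 library of each genotype. The exact permutation test gave a two-sided p of 0.4 without and of 1 with LPS, and adjusted over the 5 such tests each exact permutation p was 1. The group totals of 5, 3, 2 and 2 reads do not support a fold change with LPS, and at this depth a knockout effect was not detectable. Although miR-23b and miR-27b share a primary transcript, miR-27b-3p was listed at 33.2, 64.6, 49.2 and 74.8 times the level of miR-23b-3p in the same 4 groups, against 2.43 to 3.76 times for the chromosome 19 pair miR-27a-3p and miR-23a-3p. The b pair's ratios rest on the few reads of miR-23b-3p.

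No arm of the family passed a 1.5-fold difference between the genotypes where its means were at least 10. This covers 4 arms without LPS, and 5 with LPS, where miR-27a-5p was above the minimum. Among all mature miRNAs with both means of at least 10, 21.7% of 106 were 1.5-fold or more higher and 3.77% were 1.5-fold or more lower in 5-LOΔ MM6 cells without LPS, and 17.5% and 3.88% of 103 with LPS. The members are too few to read anything from a count of 0 against such shares.

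Without LPS, the knockout effects on the log2 scale were -0.03 for miR-24-3p, 0.09 for miR-27a-3p, -0.06 for miR-23a-3p and -0.25 for miR-27b-3p. Every counting interval included 0, where 42.5% of all mature miRNAs had an interval above 0 and 15.1% one below it. The members' median was -0.04, beside 0.17 over all 106 mature miRNAs. Since most mature miRNAs had a higher mean in 5-LOΔ MM6 cells, the place of the family depended on the scaling: when the genotypes were scaled by 1 of 4 other measures, with shifts of 0.15 to 0.33, the effect of miR-24-3p ranged from -0.35 to -0.17 and that of miR-27b-3p from -0.58 to -0.40, and these counting intervals lay below 0. The effect of miR-27a-3p turned negative under each of these scalings, from -0.24 to -0.06. With the spread between libraries added, the intervals of both arms included 0 under each of the 4 scalings and as deposited, where they ran from -0.78 to 0.73 for miR-24-3p and from -1.06 to 0.56 for miR-27b-3p. A difference beyond replicate error was therefore not shown under any scaling.

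With LPS, the effects were 0.30 for miR-24-3p, 0.32 for miR-27b-3p, 0.15 for miR-27a-3p, 0.16 for miR-23a-3p and -0.00 for miR-27a-5p. The counting interval of miR-24-3p ran from 0.14 to 0.46 and was the only 1 of the 5 above 0, where 48.5% of all mature miRNAs had an interval above 0 and 18.4% one below it. That of miR-27b-3p ran from -0.00 to 0.63. The difference of miR-24-3p was not larger than the spread between libraries estimated from rarer miRNAs, since its widened interval ran from -0.46 to 1.06. Its sign turned to -0.03 when the sums of mature miRNAs without the miR-3607 arms were set equal. Its counting interval also reached 0 when the sums of all mature miRNAs were set equal, at 0.05, and when their median was set to 0, at 0.14. The members' median was 0.16, beside 0.15 over all 103 mature miRNAs, so the medians lay close together. Without the miR-3607 arms in the sums, the signs of miR-27a-3p, miR-27b-3p, miR-23a-3p and the members' median also turned. With equal sums of all mature miRNAs, miR-27a-3p was at -0.09, miR-23a-3p at -0.08 and the members' median at -0.08.

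**Figure D2:**
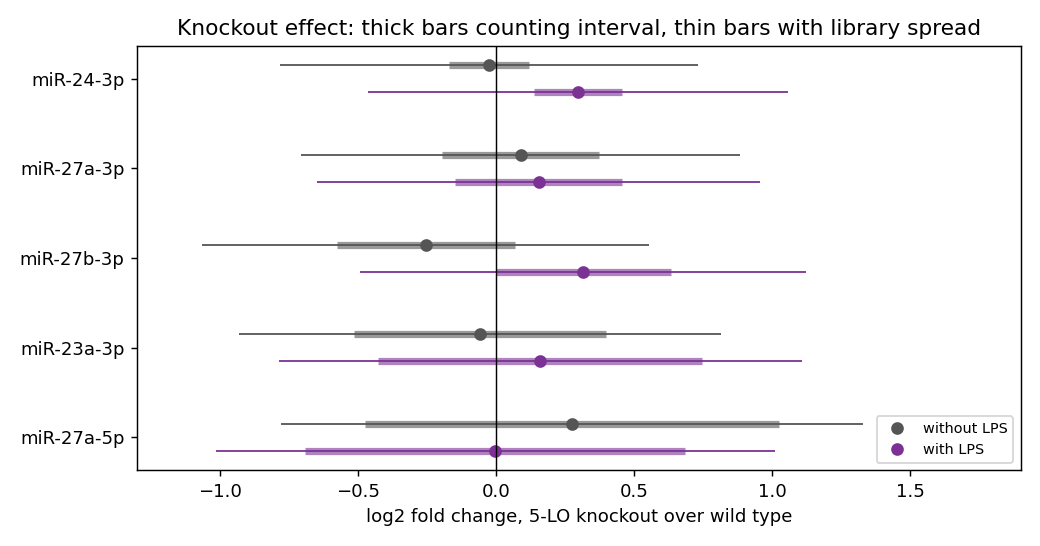
Log2 ratio of the knockout to the wild-type mean for the 5 most abundant arms, without and with LPS; thick bars are 95% counting intervals and thin bars add the spread between libraries. Only miR-24-3p with LPS has a thick bar clear of 0, from 0.14 to 0.46, and every thin bar crosses 0.

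miR-24-3p and miR-27b-3p had the largest changes of the knockout effect with LPS among the abundant arms. The effect with LPS minus that without was 0.32 for miR-24-3p, with a counting interval of 0.11 to 0.54, and 0.57 for miR-27b-3p, with 0.12 to 1.02. It was 0.22 for miR-23a-3p and 0.07 for miR-27a-3p, whose intervals included 0. The same difference over 38 other mature miRNAs with all means at least 100 had an SD of 0.296 and ran from -0.62 to 0.63. Both arms lay inside that range, and both widened intervals included 0, so the effects with and without LPS were not shown to differ. In the scatter of both effects the arms fall close to 0 on either axis.

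**Figure D3:**
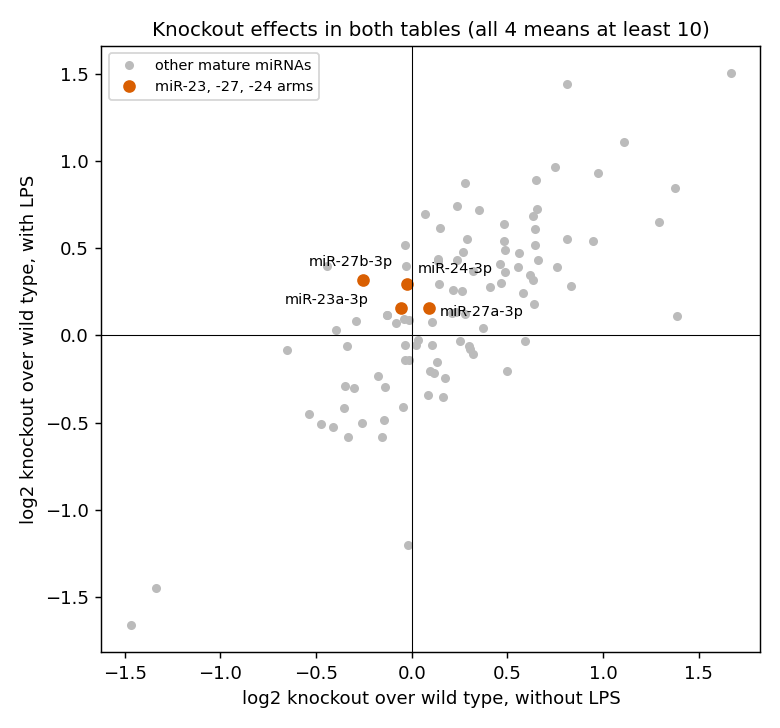
Knockout effect without LPS (x axis) against that with LPS (y axis), both log2, for the 100 mature miRNAs with all 4 means of at least 10; orange points are the 4 members among them. The members lie between -0.25 and 0.09 on the x axis and between 0.15 and 0.32 on the y axis.

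The ratio of miR-27a-3p to miR-27b-3p compares the clusters without any scaling. It was 1.12 in wild-type cells and 1.42 in the knockout, and 1.15 and 1.03 with LPS. The knockout changed it by 0.34 on the log2 scale without LPS, with a counting interval of -0.09 to 0.77, and by -0.16 with LPS, from -0.60 to 0.28. Neither change was larger than counting error. The log2 difference of this ratio with LPS from that without was 0.04 in wild-type cells, with a counting interval of -0.39 to 0.47, and -0.46 in the knockout, with an interval below 0, from -0.90 to -0.03. The widened interval of the latter ran from -1.60 to 0.67 and included 0. Within the chromosome 19 cluster, the ratio of miR-27a-3p to miR-23a-3p was 2.43 and 2.69 without LPS and 3.76 and 3.75 with LPS. The log2 change with LPS was 0.63 in wild-type cells, with a counting interval of 0.03 to 1.23, and 0.48 in the knockout, from -0.13 to 1.08, and both widened intervals included 0. The 7 arms together made up 0.418% of the summed means of mature miRNAs in wild-type cells and 0.370% in the knockout, and 0.356% and 0.361% with LPS. The miR-3607 arms alone held 43.4%, 35.8%, 42.0% and 38.5% of these sums in the same order. Without them the shares of the 7 arms were 0.739% and 0.576%, and 0.613% and 0.586% with LPS. The order of the genotypes with LPS thus depended on the miR-3607 arms.

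The deposited tables also hold entries for the hairpins, which count reads of the arms again and can hold other reads on the same hairpin. An entry did not always hold all reads of its arms, since the listed arms of some hairpins summed to more than the entry. The reads outside the arms are given as the entry minus its listed arms, and would be understated where an entry lacks arm reads. For mir-24-1 and mir-24-2 these entries gave no information on the source of miR-24-3p. After miR-24-2-5p was taken out, the sum of both entries equalled miR-24-3p within 0.12% to 0.40%, and each entry held close to the same amount of it (132 in mir-24-1, and 136 in mir-24-2 before its 5p arm of 3.72 was taken out, in wild-type cells). Reads of the shared arm had been divided equally between the loci, so its chromosome cannot be told from these tables. The mir-27b entry equalled miR-27b-3p in every group.

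mir-23a stood apart from the other member hairpins. Its entry had means of 201 in wild-type cells and 248 in the knockout, and 236 and 368 with LPS. Only a small part of this was counted under miR-23a-3p. The reads outside that arm came to 174, 222, 221 and 351 normalized counts in wild-type, knockout, wild-type with LPS and knockout with LPS cells, which is 86.7%, 89.7%, 93.6% and 95.4% of the hairpin. The hairpins of MIR23A and MIR27A are printed to show how much sequence lies outside the listed arms, from the RefSeq table of build GRCh38.p14, with the listed arms in capitals.
mir-23a: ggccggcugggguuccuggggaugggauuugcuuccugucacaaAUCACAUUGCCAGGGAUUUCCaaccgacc
mir-27a: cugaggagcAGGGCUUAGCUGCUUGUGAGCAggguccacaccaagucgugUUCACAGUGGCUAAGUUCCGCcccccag
Of the 73 bases of mir-23a, 52 lie outside miR-23a-3p, and these include the 5p arm, which was not listed. Of the 78 bases of mir-27a, 35 lie outside its 2 listed arms. Which bases the other reads cover is not shown, so whether some of them overlap a listed arm is not known. The libraries were size-selected for inserts of up to 134 nt, which admits whole hairpins.

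**Figure D4:**
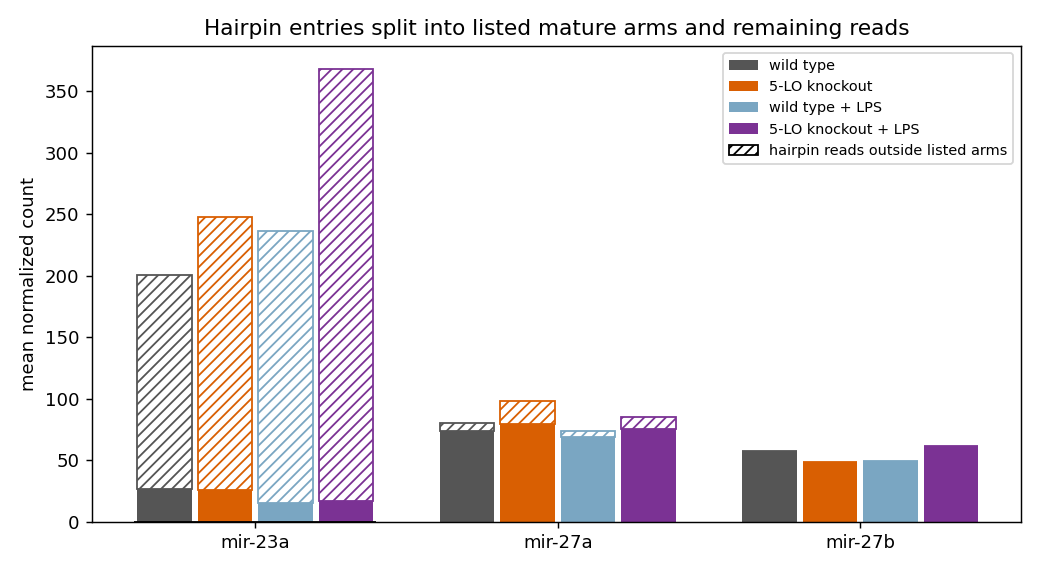
Mean normalized count of the mir-23a, mir-27a and mir-27b hairpin entries in the 4 groups (linear axis from 0); solid bars are the listed mature arms and hatched bars the remaining reads. The hatched part makes up 86.7% to 95.4% of mir-23a, 6.50% to 18.7% of mir-27a and none of mir-27b.

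A share of this size was uncommon but not particular to mir-23a. There were 46 to 50 hairpins per group with a mean of at least 20, a listed arm and no arm found in another hairpin of the RefSeq table. In wild-type cells 19 of 48 entries matched their arms within 0.01%, 18 were above them and 11 below, and the numbers were 14, 24 and 12 of 50 in the knockout, 14, 20 and 12 of 46 in wild-type cells with LPS and 18, 20 and 10 of 48 in the knockout with LPS. The lowest remainder, -79.8% of the entry, belonged to mir-664a in the knockout without LPS, which was picked out for it, and 6 hairpins per group exceeded 50%. mir-23a ranked 3rd in wild-type, 2nd in 5-LOΔ MM6, 2nd in wild-type cells with LPS and 1st in 5-LOΔ MM6 cells with LPS by this share.

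The reads outside miR-23a-3p were higher in 5-LOΔ MM6 cells in both tables. The log2 effect was 0.35 without LPS, with a counting interval of 0.19 to 0.52, and 0.67 with LPS, from 0.53 to 0.81, a 1.59-fold difference. Both widened intervals included 0, from -0.41 to 1.11 and from -0.09 to 1.43, so the difference was larger than counting error but not larger than the estimated spread between libraries. Without LPS the effect was 0.02 when the sums of mature miRNAs without the miR-3607 arms were set equal. With LPS it was 0.34 under that scaling and 0.43 to 0.60 under the 3 others, and it was under 1.5-fold in 3 of the 4. Set against miR-23a-3p, which needs no scaling, the reads outside the arm differed between the genotypes by 0.41 without LPS, with a counting interval of -0.08 to 0.90, and by 0.51 with LPS, from -0.09 to 1.11, and both intervals included 0. Over miR-24-3p the difference was 0.38 without LPS, with a counting interval of 0.16 to 0.60, and 0.37 with LPS, from 0.16 to 0.59. Over miR-27a-3p it was 0.26, from -0.07 to 0.59, without LPS and 0.52, from 0.18 to 0.85, with LPS. The counting interval thus depended on the arm in the denominator, and every widened interval of these ratios included 0. The mir-23a remainder was taken up after the data were seen.

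Counted as whole entries, 1 of the 5 member hairpins with means of at least 10, mir-23a with LPS at 1.56-fold, was 1.5-fold or more higher in the knockout, and none was without LPS. That 1 entry fell under 1.5-fold with each of the 4 other scalings, where its log2 effect was 0.32 to 0.57. Over all hairpin entries, 21% of 100 without LPS and 19.6% of 97 with LPS were. As deposited, the counting interval lay above 0 for 2 of the 5 without LPS and 3 of the 5 with LPS, near the 50% and 57.7% of all hairpin entries. Without LPS, that of mir-23a reached 0 with equal sums of all noncoding RNAs, at 0.13, and with the mature median set to 0, at 0.13. It stayed above 0 with equal sums of mature miRNAs, at 0.16, and the effect was -0.02 when these sums left out the miR-3607 arms. The 2 miR-24 entries share their reads and are not separate evidence.

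With LPS, mir-23a held more reads outside its arm for each read of miR-23a-3p in both genotypes. The ratio was 6.54 in wild-type cells without and 14.6 with LPS, a log2 change of 1.16 with a counting interval of 0.61 to 1.71. In 5-LOΔ MM6 cells it was 8.69 and 20.8, a change of 1.26 from 0.71 to 1.80. These ratios do not depend on the scaling of either table, but they do depend on the arm in the denominator. Over miR-27a-3p, the log2 change of the same reads with LPS was 0.53 in wild-type cells and 0.78 in the knockout, with widened intervals of -0.58 to 1.63 and -0.32 to 1.88. Over miR-24-3p it was 0.78 in both genotypes, and both widened intervals included 0. Over miR-23a-3p, with the spread between libraries added, the interval ran from -0.03 to 2.34 in wild-type cells and from 0.07 to 2.44 in the knockout, so that the knockout interval alone was above 0. This call depended on the dispersion used. With each group's own dispersion the wild-type interval ran from 0.16 to 2.15 and the knockout interval from -0.09 to 2.60, so that the wild-type one alone was above 0. The change was larger than counting error in both genotypes, and neither was clear of the spread between libraries under both estimates. Whether the change itself differed between the genotypes was not tested.

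The 5 other hairpins with most of their reads outside the arms in all groups had lower ratios with LPS in wild-type cells and differed in sign in the knockout. With LPS the log2 change of the ratio in wild-type cells was -0.28 for mir-15a, -0.67 for mir-19a, -0.29 for mir-20a, -1.48 for mir-374a and -0.04 for mir-425. In 5-LOΔ MM6 cells it was 0.47, -0.42, -0.18, 1.44 and 0.21 in the same order. Of the 6 hairpins only mir-23a had a change above 1 in both genotypes, and mir-374a had changes of that size with opposite signs. The arms of mir-374a had means of only 1.41, 4.33, 3.40 and 2.13 normalized counts in the order wild type, knockout, wild type with LPS and knockout with LPS, so its ratios rest on few reads. No interval was computed for these 5 hairpins.

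**Figure D5:**
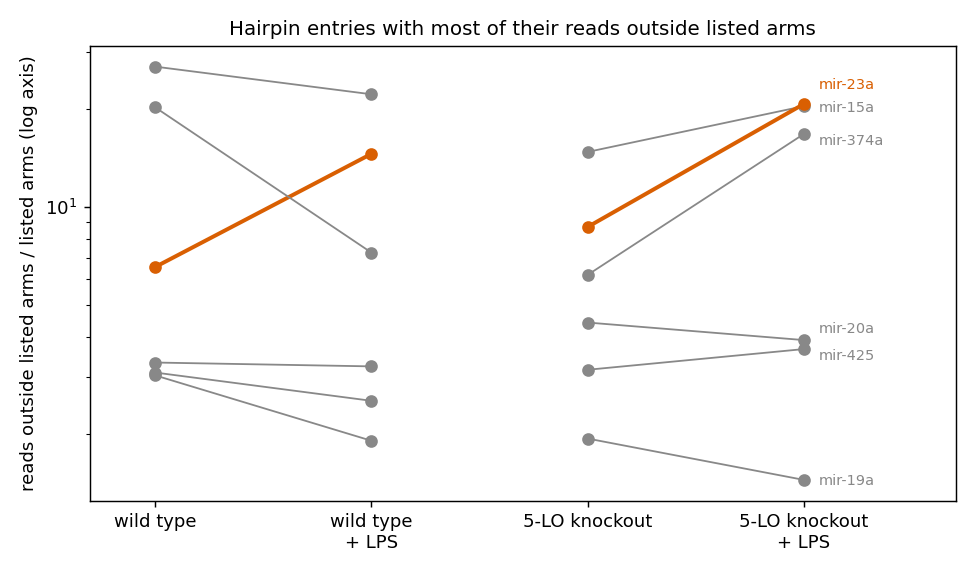
Ratio of reads outside the listed arms to reads of the listed arms (log axis) for the 6 hairpins with more than 50% of reads outside in all 4 groups; lines join the groups without and with LPS of a genotype. The line of mir-23a (orange) goes from 6.54 to 14.6 in wild-type cells and from 8.69 to 20.8 in the knockout.

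mir-27a held fewer such reads. They came to 6.74 normalized counts in wild-type cells and 18.3 in the knockout, and 4.77 and 10.1 with LPS. The log2 effects were 1.44, with a counting interval of 0.71 to 2.18, and 1.09, from 0.17 to 2.01. The widened interval stayed above 0 without LPS, from 0.40 to 2.49, and included 0 with LPS, from -0.09 to 2.27. Among whole hairpin entries with both means of at least 10, 9% of 100 without LPS and 8.25% of 97 with LPS had a widened interval above 0, although the mir-27a remainder lies under that minimum. Under the 4 other scalings the effect was 1.12 to 1.30 without LPS, and the lowest widened interval ran from 0.07 to 2.16. With LPS it was 0.76 to 1.02, and the counting interval included 0 under 2 of the 4. This remainder was singled out after its values were seen. In wild-type cells without LPS the libraries had 11, 7 and 4 of these reads, and in the other groups the reads of single libraries could not be recovered in 1 way.

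By the distance between the pairs of knockout effects, without and with LPS, the miRNA nearest to miR-24-3p among the 38 abundant ones was miR-16-5p, at a distance of 0.104 and with effects of -0.03 and 0.40, followed by miR-181c-5p (0.165) and miR-3607-3p (0.205). For miR-27a-3p these were miR-181b-5p (0.120), miR-1291 (0.141) and miR-181c-5p (0.151). For miR-27b-3p they were miR-3607-3p (0.234), miR-3607-5p (0.235) and miR-191-5p (0.238). Each distance was taken over 2 effects, and several of them are below the counting errors of the members.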

How the data were processed

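For each of 12 libraries the authors extracted total RNA, prepared small RNA libraries, size-selected them, trimmed adapters and annotated the reads to hg19 with omiRas. The labels number the replicates but do not say what they are, and the study's legend for its sequencing without LPS speaks of independent experiments. The authors deposited, per group of 3 libraries, the mean of normalized counts, a signal whose scaling the sources used here do not name. The deposited log2 ratio, p-value and FDR columns hold the authors' own comparisons and were not used. The number of value columns mapped to no sample or group was 0.

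The planned fallback for means was used. Size factors were found as 3 steps that made every mean of at most 10 from whole reads in exactly 1 way. Reads of single libraries are given for means up to 30 where 1 solution existed, a limit raised from 20 after the data were seen. Counting intervals are Poisson at 95%, cover counting error only, and were tested together with the recovery on simulated data. Wider intervals add a negative binomial dispersion of 0.104, the mean over groups, from mature miRNAs with means of 5 to 10, and assume that it holds at higher means. No pseudocount was used, and no fold change is given where both groups had at most 3 reads. Intervals with each group's own dispersion, and with both another scaling and the spread, were added after the data were seen, as were the two-sided exact permutation tests over libraries with recovered reads, adjusted by Benjamini-Hochberg, and the scalings of the mir-27a remainder. Reads outside the arms are the hairpin mean minus its listed arms, and the knockout effects on them were also added after the data were seen.

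Named were all listed arms and hairpins of the family and miR-128, which holds the miR-27 seed from base 1. Also named were the 3 nearest miRNAs to each of the 3 most abundant arms, and the cell type markers. The other hairpins with most reads outside their arms were named after their values were seen. The members and lists were chosen with earlier results of these data known. RefSeq sequences matched 267 of the 314 listed mature names. Positions are from GRCh37 with GENCODE, counted from 1. Alternatives were 4 scalings, pseudocounts of 1 and 10, other fold and level limits, the wider interval and leaving out each library whose reads were recovered. Calculations used scipy 1.17.1, numpy 2.4.6 and pandas 2.3.3 under Python 3.11.15, and plots used matplotlib 3.10.9.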

Additional observations from a re-analysis of the deposited data

How the results depend on the processing

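No paired analysis was possible because the deposited columns are means over libraries and carry no replicate numbers. Setting the sums of mature miRNAs without the miR-3607 arms equal turned the effect of mir-23a without LPS to -0.023 and that of miR-24-3p with LPS to -0.031, moved the members' median without LPS to -0.37 and took the reads outside miR-23a-3p without LPS to 0.025, within counting error. With no minimum mean, 1 arm (miR-23b-3p) was past 1.5-fold lower without LPS and 1 (miR-24-2-5p) past 1.5-fold higher with LPS, both on few reads. With the spread between libraries added, the effects of 0.35 and 0.67 for the reads outside miR-23a-3p were no longer past 0, with the mean dispersion or each group's own. The change of the mir-23a ratio with LPS was past 0 only in the knockout with the first and only in the wild type with the second. Of 362 recomputed values, 317 kept their direction and their side of the threshold or stayed within their error, 10 moved past the threshold, 22 fell short of it, 11 values or counts with no test moved and 2 reversed.

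Leaving out a library could be done only for rare arms whose reads were recovered. Without LPS the effect then ranged from -0.11 to -0.02 for miR-23a-3p, from 0.04 to 0.65 for miR-27a-5p, from -0.02 to 1.06 for miR-24-2-5p and from -1.80 to -0.60 for miR-23b-3p. With LPS it ranged from 0.06 to 0.25 for miR-23a-3p, from -0.25 to 0.37 for miR-27a-5p and from 0.29 to 1.70 for miR-24-2-5p. The sign of miR-24-2-5p without LPS turned without the second wild-type library, at -0.02, and that of miR-27a-5p with LPS without the second knockout library, at 0.37. Leaving out a library was not run for miR-24-3p, miR-27a-3p and miR-27b-3p, whose means could not be resolved into reads.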

Other observations

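The seed of miR-27 also occurs in miR-128, where it starts at base 1 of the mature sequence. miR-128, a miRNA known best from the brain, had means of 5.88 in wild-type cells and 6.39 in the knockout and of 7.19 and 6.12 with LPS, below the miR-27 arms in all 4 groups. The mir-23b hairpin held 3 reads outside its arm in 1 wild-type library with LPS, and none in the other groups.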
